A study of Mus musculus with 6 samples.

Results

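The translation initiation factor genes of Mvt-1 cells were followed through an early response to insulin. Mvt-1 is a mouse mammary tumour line derived from animals that carry Myc and Vegf transgenes. All cells had been kept without serum for 16 h. They then received insulin at 10 nM for 90 min, or vehicle, for which the labels give no time, with 3 arrays in each group. The labels leave unstated whether each replicate was a culture of its own. The p-values therefore cover the spread among these 6 samples and no more, and that spread may be technical. A gene was counted as an initiation factor gene when its symbol began with Eif and a digit from 1 to 6, which also takes in the eIF4E-binding proteins and the eIF2 alpha kinases. Of 19057 genes named on the array 51 met this rule, through 96 of its probes, and 40 of these genes had a probe detected on at least 3 of the 6 arrays. These 40 were among the 9478 genes tested, and each of them was detected on all 6 arrays by its brightest probe. The transcripts of Eif1, Eif2s1, Eif3g and Eif4g1 were not analysed here.

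Initiation begins when eIF4E binds the cap of a messenger RNA and, with the scaffold eIF4G and the helicase eIF4A, opens it for the small ribosomal subunit. That subunit carries eIF1, eIF1A, eIF3, eIF5 and the initiator transfer RNA, which is brought by eIF2 bound to GTP. Insulin acts on this machinery within minutes, mainly at the protein level: signalling through mTORC1 phosphorylates the eIF4E-binding proteins and releases eIF4E, and a kinase downstream of AKT stops inhibiting the eIF2 exchange factor eIF2B. Several genes of the machinery are also known targets of MYC. The arrays measured transcript levels alone, and in such bulk samples fewer cells of a type and less RNA per cell cannot be told apart.

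The stretch before the annotated start is shown for 3 genes, in RefSeq's sequence of build GRCm38.p6, 5′ to 3′ on the gene's strand. Eif4e is shown because its window held 2 copies of the E-box CACGTG bound by MYC, and Eif5 and Eif4ebp2 because they had the smallest p-values of all the initiation factor genes. Capitals mark matches to any of 3 motifs searched on both strands, namely the E-box CACGTG, the FOXO motif GTAAACA and the ATF4 motif TGATGNAA. The first lies at chr3:138527018-138527267 on the plus strand, the next at chr12:111537851-111538100 on the plus strand and the last at chr10:61452670-61452919 on the minus strand.
Eif4e: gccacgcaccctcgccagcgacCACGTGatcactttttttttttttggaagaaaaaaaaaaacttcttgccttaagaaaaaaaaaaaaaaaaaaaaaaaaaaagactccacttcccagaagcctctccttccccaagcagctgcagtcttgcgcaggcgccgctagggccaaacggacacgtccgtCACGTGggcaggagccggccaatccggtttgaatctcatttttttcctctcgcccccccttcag
Eif5: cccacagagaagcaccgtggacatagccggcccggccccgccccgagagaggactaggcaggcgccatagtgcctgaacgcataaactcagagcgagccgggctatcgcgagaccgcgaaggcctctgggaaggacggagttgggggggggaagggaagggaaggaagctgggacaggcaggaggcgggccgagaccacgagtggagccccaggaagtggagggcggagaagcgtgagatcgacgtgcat
Eif4ebp2: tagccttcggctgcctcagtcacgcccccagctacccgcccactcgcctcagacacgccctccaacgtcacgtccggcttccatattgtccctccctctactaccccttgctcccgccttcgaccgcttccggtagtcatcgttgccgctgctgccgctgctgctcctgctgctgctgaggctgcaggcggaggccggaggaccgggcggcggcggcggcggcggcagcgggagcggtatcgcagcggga

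RefSeq windows, from 250 bases before to 50 bases after an annotated start, were matched for 32 of the 40 tested initiation factor genes. An E-box stood in a window of 8 of them, or 25%, against 12% of the 7719 tested genes with a window. Besides Eif4e the holders were Eif1b, Eif3a, Eif3f, Eif3k, Eif4a1, Eif4h and Eif5a, and Eif4e and Eif5a have more than 1 window in the table, which gives them more chances of a match. Their median log2 difference between insulin and vehicle was 0.0050, and that of the initiation factor genes without the motif was 0.093. The FOXO motif matched 0 of the 32 genes, against 3.08% of the tested genes. The ATF4 motif matched 1, Eif2s3x, against 2.71%. A C followed by 4 pyrimidines, the known start of the mRNAs of ribosomal proteins, stood at an annotated start of Eif2s3x and Eif3f. That was 6.25%, against 2.91% of the tested genes and 17.8% of the Rpl and Rps genes with a window. Most Rpl and Rps genes thus had no match at an annotated start, so its absence in an initiation factor gene says little. In the windows of Eif5 and Eif4ebp2 none of these motifs and no such start occurred, which says nothing about the factors themselves.

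Across the array 17617 to 18232 of 45281 probes were detected, and median signals ran from 76.0 to 77.1 within a range of 62.5 to 13285.1. Over the genes tested, the lowest correlation between any 2 arrays was 0.988. Of 8 epithelial and mammary tumour markers, 4 were detected on at least 3 arrays, with Krt8 and Krt18 on all 6 and Cdh1 on 3, while Epcam, Krt19 and Cldn4 were not detected on any. Of 14 stromal, endothelial, immune or adipocyte markers present on the chip, Col3a1, Pdgfra, Pdgfrb and Acta2 were detected and 8 others, among them Ptprc and Adipoq, were never detected. The summed level of the 4 detected non-epithelial markers, after log2, was 9.76 to 10.05 with vehicle and 9.63 to 9.76 with insulin. That of the epithelial markers was 11.05 to 11.48 with vehicle and 11.12 to 11.25 with insulin. The part of these levels in the results below was not tested.

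After 90 min with insulin, no initiation factor transcript differed from vehicle past the threshold. With limma and Benjamini-Hochberg adjustment over all genes, 0 of 40 passed an adjusted p of 0.05, where 0.464% of all genes did (0.127% higher and 0.338% lower), and the lowest adjusted p was 0.176. At an unadjusted p under 0.05 there were 4, with Eif4ebp2, Eif5 and Eif1a higher and Eif3k lower, or 10% against 11% of all genes. With the authors' processed values that count was 10 of 40, 9 higher and 1 lower, and the share of all genes stayed at 11%. In the main fit 4.8% of all genes were higher and 6.15% lower at an unadjusted p under 0.05. The 40 differences ran from -0.34 to 0.74 on the log2 scale, and 20 of them lay within 0.1 of 0. Standard errors were 0.12 to 0.21. For 34 of the 40 genes the 95% interval of the difference lay inside a 1.5-fold change in either direction, and for the other 6 it reached past it. The groups did not overlap in 9 of the 40 genes, or 22.5%, against 15.9% of all genes, with insulin higher in 8 (6.59% of all genes) and lower in 1 (9.34%).

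**Figure D1:**
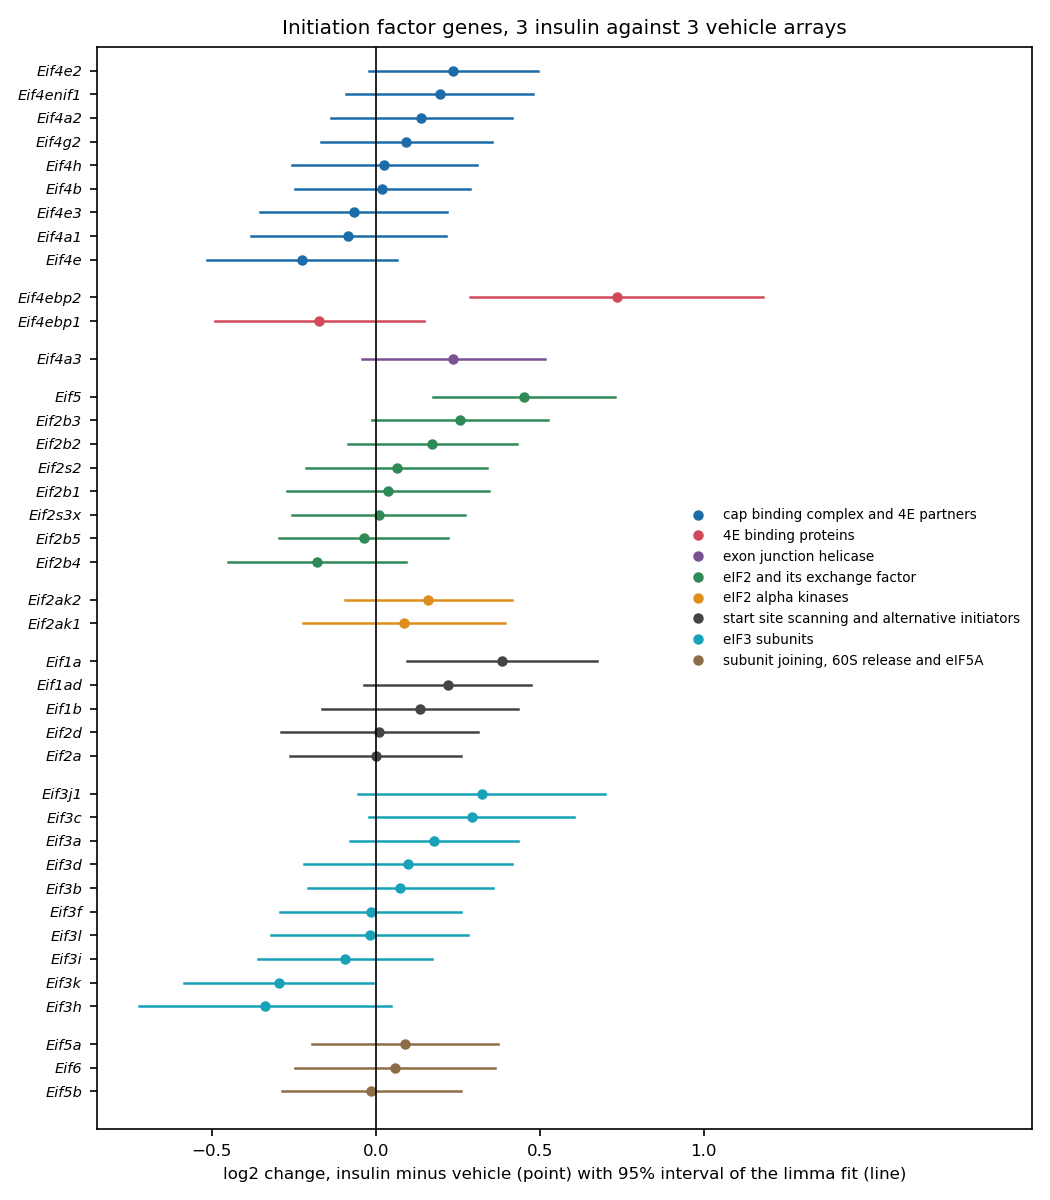
Log2 difference between 3 insulin and 3 vehicle arrays for each of the 40 tested initiation factor genes, grouped by role, with the 95% interval from limma as a line. The intervals of Eif4ebp2, Eif5 and Eif1a lie above 0 and that of Eif3k just below it, before any adjustment over the genes tested.

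The eIF4E-binding proteins hold eIF4E away from eIF4G until insulin signalling phosphorylates them. For Eif4ebp2, the log2 intensity was 6.67, 7.39 and 6.66 on vehicle replicates 1 to 3 and 7.69, 8.06 and 7.17 on the insulin replicates. Vehicle replicate 2 lay above insulin replicate 3, so the groups overlapped, and these were among the widest-spread values of the family. The mean was 6.90 ± 0.42 (SD, n = 3) with vehicle and 7.64 ± 0.45 with insulin, a 1.66-fold ratio with a log2 difference of 0.74 ± 0.21 (standard error, limma adjusted p = 0.176). It was the largest difference among the 40. Without insulin replicate 3 the log2 difference of Eif4ebp2 was 0.97 and passed the threshold (limma adjusted p = 0.0244). Over the 16 alternatives the log2 difference of Eif4ebp2 ran from 0.52 to 0.98, so other choices made it smaller as well as larger. Its limma adjusted p lay between 0.0142, with the replicate number as a block, and 0.518 across the 16 alternatives. A single probe reads the gene, so no further probe could be set beside it.

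Eif4ebp1, the better-studied binding protein, stood at 10.83, 10.75 and 11.04 with vehicle and at 10.45, 10.63 and 11.02 with insulin. Insulin replicates 1 and 2 were below all vehicle arrays and insulin replicate 3 was not. The log2 difference was -0.17 ± 0.15 (limma adjusted p = 0.731), with a 95% interval from -0.49 to 0.15. For Eif4ebp1 the log2 difference was -0.050 without insulin replicate 1 and -0.33 without insulin replicate 3. Whether the 2 binding proteins differ from each other in their response was not tested. Eif4ebp3, the remaining gene of this kind, was detected on 1 array and was not tested.

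The cap-binding and unwinding factors gave small differences. Eif4e, the cap-binding protein, stood at 5.92, 6.18 and 5.87 with vehicle and at 5.60, 5.75 and 5.95 with insulin, and the groups overlapped through insulin replicate 3. Its log2 difference was -0.23 ± 0.14 (limma adjusted p = 0.593), and -0.11 with the authors' processed values. Eif4e2, a cap-binding relative that represses translation, stood at 8.63, 8.75 and 8.78 with vehicle and at 8.99, 8.91 and 8.97 with insulin. All 3 insulin arrays lay above the vehicle arrays for Eif4e2, with a log2 difference of 0.24 ± 0.12 (limma adjusted p = 0.50), or 0.15 for the mean of its probes. Eif4e3, another relative, had a log2 difference of -0.067 ± 0.13, and Eif4enif1, which carries eIF4E into the nucleus and to processing bodies, one of 0.20 ± 0.13.

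Eif4a1, the main eIF4A helicase of dividing cells, stood at 12.43, 12.22 and 12.66 with vehicle and at 12.35, 12.50 and 12.20 with insulin. The arrays of the groups were interleaved, and the log2 difference was -0.083 ± 0.14 (95% interval from -0.38 to 0.21). Its paralogue Eif4a2 had a log2 difference of 0.14 ± 0.13. Eif4b, a cofactor of the helicase, stood at 8.02, 7.99 and 7.93 with vehicle and at 7.90, 7.95 and 8.15 with insulin, a log2 difference of 0.021 ± 0.13. Eif4h, a related cofactor, was at 0.026 ± 0.13, and Eif4g2, an eIF4G relative that does not bind eIF4E, at 0.094 ± 0.12. The list of the cap-binding complex and eIF4E partners, which takes in Eif4e2, Eif4e3, Eif4enif1 and Eif4g2, had 9 tested genes. Of these, 6 had a positive difference and 3 a negative one, with a median of 0.026. Eif4a3, a helicase of the exon junction complex that shares the family name, had a log2 difference of 0.24 ± 0.13.

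**Figure D2:**
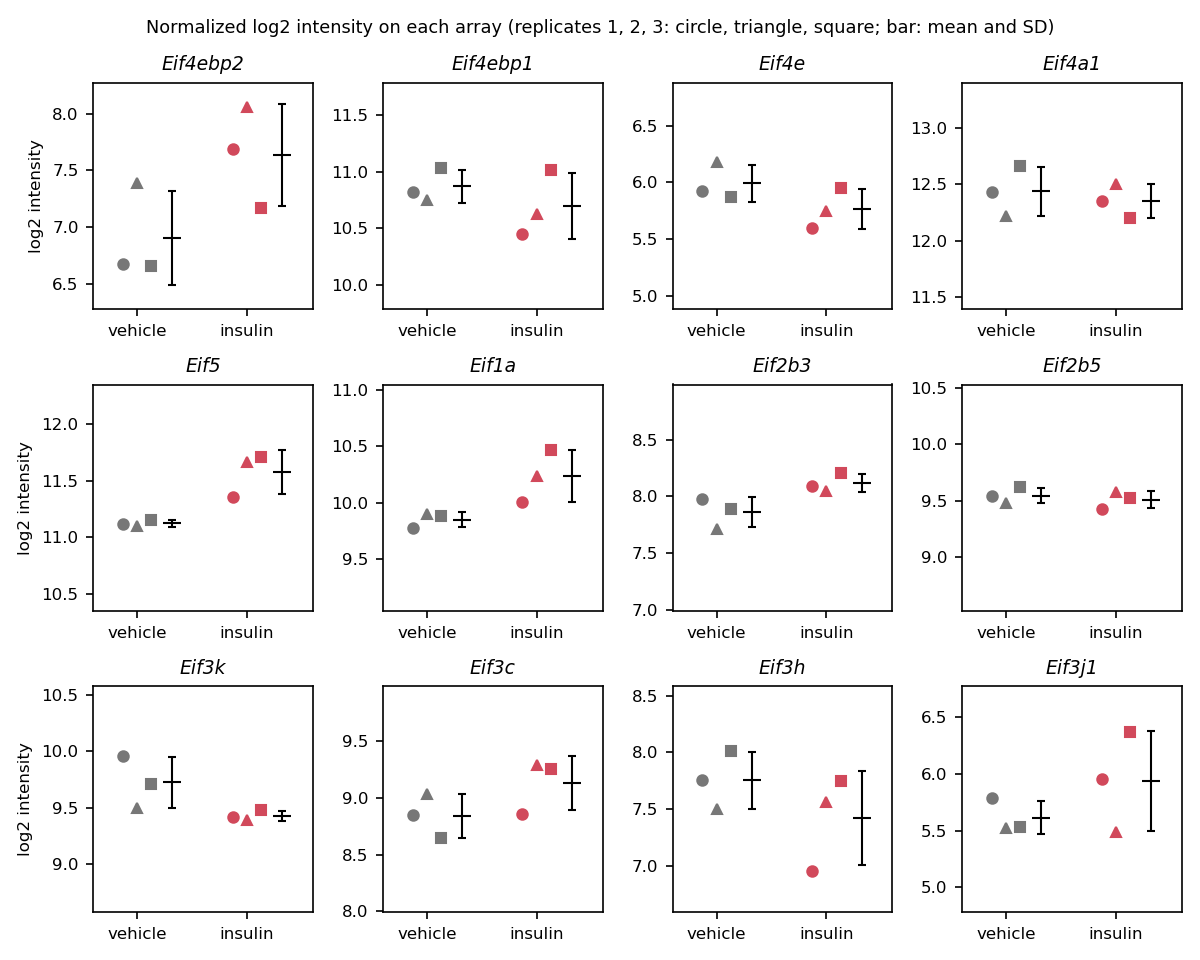
Normalized log2 intensity on every array for 12 initiation factor genes, with vehicle in grey and insulin in red, replicates as symbols and the mean with its SD as a bar; every panel spans the same height of 2 log2 units. Eif5, Eif1a and Eif2b3 lie wholly above vehicle and Eif3k wholly below it, whereas Eif4ebp2 spreads widely in both groups and overlaps.

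Eif5 encodes the protein that makes eIF2 hydrolyse its GTP at the start codon. It stood at 11.12, 11.10 and 11.16 with vehicle and at 11.35, 11.66 and 11.71 with insulin. All insulin arrays were above all vehicle arrays, the vehicle arrays lay within a narrow band, and the insulin arrays spread more. The means were 11.12 ± 0.030 (SD, n = 3) and 11.58 ± 0.19, a 1.37-fold ratio with a log2 difference of 0.45 ± 0.13 (limma adjusted p = 0.185). A trended and robust variance model gave Eif5 an adjusted p of 0.0348 in limma, past the threshold. Across the 16 alternatives its adjusted p lay between 0.0348 and 0.482. The 2 further probes of Eif5 gave log2 differences of 0.40 ± 0.14 and 0.24 ± 0.12 when each probe was tested on its own, so that all 3 pointed the same way. Probes of 1 gene share their arrays and RNA and are not independent of each other.

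The differences of the eIF2 subunits were smaller than their standard errors. Eif2s2, the beta subunit, had a log2 difference of 0.064 ± 0.13 and Eif2s3x, the X-linked gamma subunit, one of 0.0089 ± 0.12. Its Y-linked counterpart Eif2s3y was detected on 2 arrays and was not tested, and nor was the pseudogene Eif2s3x-ps1.

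The exchange factor eIF2B reloads eIF2 with GTP, and all 5 of its subunit genes were tested. Eif2b3, the gamma subunit, stood at 7.98, 7.71 and 7.89 with vehicle and at 8.09, 8.05 and 8.21 with insulin. The groups did not overlap, though insulin replicate 2 lay only a little above vehicle replicate 1, and the log2 difference was 0.26 ± 0.13 (limma adjusted p = 0.472). Eif2b2, the beta subunit, did not overlap either, at 0.17 ± 0.12. Eif2b5, the catalytic epsilon subunit, stood at 9.54, 9.48 and 9.62 with vehicle and at 9.43, 9.58 and 9.52 with insulin, a log2 difference of -0.037 ± 0.12. Eif2b1, the alpha subunit, was at 0.039 ± 0.15 and Eif2b4, the delta subunit, at -0.18 ± 0.13. The 5 subunits of 1 complex thus gave 3 positive and 2 negative differences.

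Of the 4 kinases that phosphorylate eIF2 alpha and so slow initiation, Eif2ak1, which senses heme, and Eif2ak2, which senses double-stranded RNA, were detected. Eif2ak2 stood at 11.20, 11.23 and 11.19 with vehicle and at 11.43, 11.37 and 11.30 with insulin. The groups did not overlap, and the log2 difference was 0.16 ± 0.12 (limma adjusted p = 0.679). Eif2ak1 had a log2 difference of 0.087 ± 0.15. Eif2ak3, the kinase of endoplasmic reticulum stress, was detected on 2 arrays and Eif2ak4, the kinase of amino acid shortage, on 0, so neither was tested.

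Among factors of start site scanning, Eif1a encodes eIF1A, which sits in the decoding site of the small subunit. It stood at 9.77, 9.90 and 9.88 with vehicle and at 10.01, 10.24 and 10.47 with insulin, and the groups did not overlap. The means were 9.85 ± 0.069 (SD, n = 3) and 10.24 ± 0.23, a 1.31-fold ratio with a log2 difference of 0.39 ± 0.14 (limma adjusted p = 0.314). Eif1a ranged from 0.27 to 0.50 over the 16 alternatives and was called in 0 of them. The X-linked paralogue Eif1ax was detected on 1 array and was not tested, and whether the probe of either gene reads the other was not tested.

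Eif1ad, a gene with an eIF1A domain, stood at 8.72, 8.67 and 8.76 with vehicle and at 8.87, 8.97 and 8.96 with insulin. Its groups did not overlap and the log2 difference was 0.22 ± 0.12 (limma adjusted p = 0.537), with further probes at 0.24 ± 0.14 and 0.17 ± 0.14. Eif1b, a paralogue of the start codon selection factor eIF1, had a log2 difference of 0.13 ± 0.14. Eif2a, a separate initiator protein and not the alpha subunit of eIF2, had equal means of 11.05 in both groups. Eif2d, which can place transfer RNA on the small subunit without GTP, was at 0.011 ± 0.14 by its brightest probe.

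The scaffold eIF3 is the largest of the factors, and 10 of its subunit genes were tested, of which 5 had a positive and 5 a negative difference, with a median of 0.030. Eif3k, an accessory subunit, stood at 9.96, 9.50 and 9.71 with vehicle and at 9.42, 9.39 and 9.48 with insulin. All 3 insulin arrays lay below the vehicle arrays, although by only a small step from vehicle replicate 2, and the log2 difference was -0.30 ± 0.14 (limma adjusted p = 0.442). Without vehicle replicate 1 the log2 difference of Eif3k was -0.18, the smallest in size over the alternatives, and with vehicle replicate 2 left out it was -0.41. Eif3h, a subunit of the outer lobe, stood at 7.75, 7.50 and 8.01 with vehicle and at 6.95, 7.56 and 7.74 with insulin. Insulin replicate 1 was far below the other 5 arrays, the groups overlapped, and the log2 difference was -0.34 ± 0.18 (limma adjusted p = 0.526). Without insulin replicate 1 the log2 difference of Eif3h was -0.10, and without insulin replicate 3 it was -0.50.

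Eif3c, a core subunit, stood at 8.85, 9.03 and 8.65 with vehicle and at 8.86, 9.29 and 9.26 with insulin. Insulin replicate 1 fell among the vehicle arrays, and the log2 difference was 0.29 ± 0.15 (limma adjusted p = 0.486). A second Eif3c probe gave -0.016 ± 0.19, and the mean of both probes 0.14. Eif3j1, a loosely bound subunit that aids recycling of ribosomes, stood at 5.79, 5.53 and 5.54 with vehicle and at 5.96, 5.49 and 6.37 with insulin, a log2 difference of 0.32 ± 0.18. Insulin replicate 2 was below all vehicle arrays there and insulin replicate 3 far above them. Without insulin replicate 3 the log2 difference of Eif3j1 was 0.11, and without insulin replicate 2 it was 0.55.

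Of the core subunits Eif3a, the largest, was at 0.18 ± 0.12 without overlap of the groups and Eif3b at 0.075 ± 0.13. Eif3d, which can bind a cap by itself, was at 0.099 ± 0.15. Eif3i was at -0.094 ± 0.13, Eif3l at -0.018 ± 0.14 and Eif3f at -0.016 ± 0.13. Subunits of the same complex thus lay on both sides of 0. Eif3e and Eif3m were detected on 1 array each and were not tested.

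Differences of the late factors were also small. Eif5a, a factor that carries hypusine and relieves stalled ribosomes, stood at 10.16, 9.85 and 10.26 with vehicle and at 10.13, 10.23 and 10.19 with insulin. The insulin arrays lay within the range of the vehicle arrays, and the log2 difference was 0.089 ± 0.13. Eif6, which keeps the large ribosomal subunit from joining too early, stood at 11.28, 10.74 and 10.98 with vehicle and at 10.97, 11.17 and 11.04 with insulin, a log2 difference of 0.058 ± 0.14 with overlap. Eif5b, the GTPase of subunit joining, was at -0.013 ± 0.13. Eif5a2, Eif4g3 and Eif4e1b were detected on 0 arrays.

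More than 1 probe was detected for 20 of the 40 genes, 49 probes in all, which allows probes of a gene to be set side by side. All probes of a gene had the same sign in 10 of the 20 genes, positive in 8 and negative in 2. The median distance between the highest and the lowest log2 difference of a gene's probes was 0.16, and the largest was 0.44. That largest distance belonged to Eif2d, whose further probe gave -0.43 ± 0.14 (unadjusted p = 0.00608 in limma, adjusted over all probes 0.283) against 0.011 for its brightest. The probes of Eif3a gave 0.18, 0.20 and -0.23, and those of Eif4a2 gave 0.14, 0.20 and -0.21. The Eif3a probe at 0.20 was near background, detected on 4 arrays with means of 4.39 with vehicle and 4.59 with insulin. A further probe of Eif5a stood at 0.33 ± 0.15, and those of Eif4g2 at 0.24 ± 0.16 and 0.29 ± 0.14. Both further probes of Eif2b5 were negative, at -0.18 ± 0.14 and -0.22 ± 0.13. With each of the 69 detected probes of the family tested on its own, 0 passed over the 15007 probes tested with limma (0.12% of all of them did), and 6 had an unadjusted p under 0.05, or 8.70% against 10.1%.

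**Figure D3:**
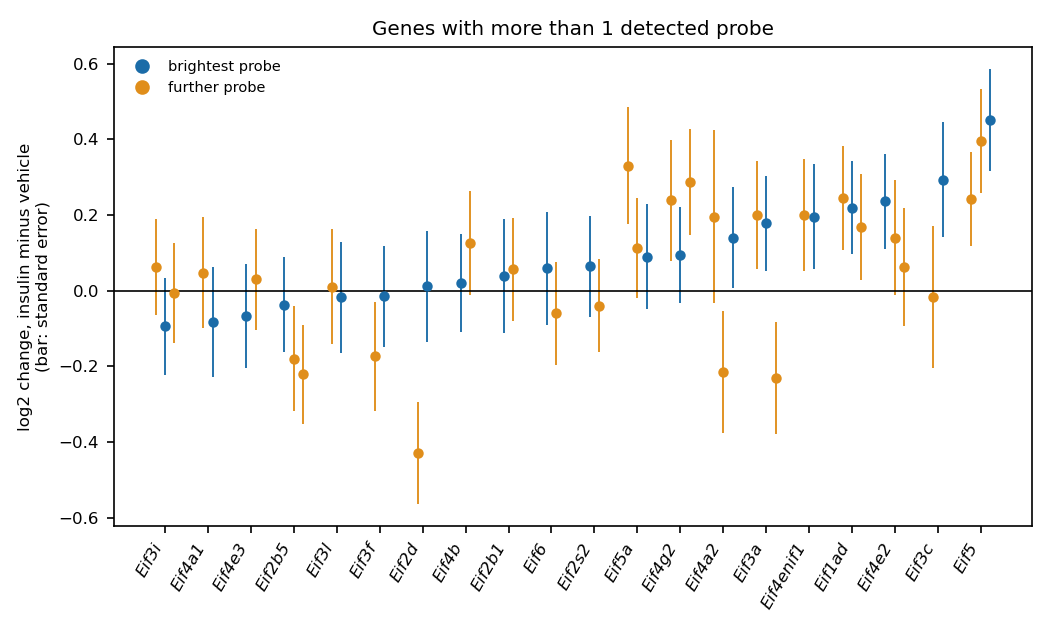
Log2 difference between insulin and vehicle for every detected probe of the 20 initiation factor genes with more than 1, with the standard error as a bar and the probe used for the gene in blue. The 3 probes of Eif5 lie together above 0, while those of Eif2d, Eif3a and Eif4a2 lie on both sides of it.

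As a group the initiation factor genes sat slightly above the rest. Their median log2 difference was 0.069, with quartiles at -0.016 and 0.18, and that of all genes tested was -0.015, with quartiles at -0.13 and 0.099. A positive difference was found in 27 of 40, or 67.5%, against 46% of all genes. The median size of a difference regardless of sign was 0.117 in both sets. Array by array, the median deviation of the 40 genes from their own means was -0.023, -0.064 and -0.0047 on the vehicle arrays and 0.012, 0.048 and 0.091 on the insulin arrays. The same median over all genes lay between -0.024 and 0.021. No test was made of this shift, since the genes were chosen with results of these data known, and a median of 0.030 was left without vehicle replicate 2 and one of 0.12 without vehicle replicate 3.

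Neighbouring parts of the translation machinery were read in the same fit. Regulators and partners of initiation, such as mTORC1 components, the eIF4E kinases and poly(A)-binding proteins, had 36 tested genes, of which 0 passed, 1 was higher and 1 lower at an unadjusted p under 0.05, and 23 were positive (median 0.031). Positive differences made up 63.9%, against 46% of all genes. The share at an unadjusted p under 0.05 was 5.56%, against 11% of all genes, of which only 0.464% passed. The smallest p there was that of Nck1, an adaptor that also helps dephosphorylate eIF2 alpha, with a log2 difference of -0.35 ± 0.12 (limma adjusted p = 0.316). Gigyf1, a partner of Eif4e2 in repression, was at 0.42 ± 0.18, and Pdcd4, an inhibitor of eIF4A that S6 kinase marks for destruction, at -0.28 ± 0.14. The Gigyf1 signal was dim, at 4.58, 5.01 and 4.66 with vehicle and 5.65, 5.04 and 4.82 with insulin, and its groups overlapped. The list of elongation and release factors, which also holds mitochondrial ones and the mitochondrial initiation factors Mtif2 and Mtif3, had 26 tested genes. Of these 0 passed, 2 were higher and 0 lower at an unadjusted p under 0.05, and 9 were positive (median -0.019). Positive differences made up 34.6%, against 46% of all genes. The share at an unadjusted p under 0.05 was 7.69%, again against 11% of all genes. The 2 were Eef1e1, a component of the transfer RNA synthetase complex, at 0.33 ± 0.13, and Dph2, an enzyme of diphthamide synthesis on elongation factor eEF2, at 0.30 ± 0.13. Genes named Rpl or Rps with a number had 52 tested members, with 0 passing, against 0.464% of all genes. At an unadjusted p under 0.05 there were 0, against 11% of all genes. Positive differences numbered 18, or 34.6% against 46% (median -0.060). Rps6 counts both there and among the regulators.

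**Figure D4:**
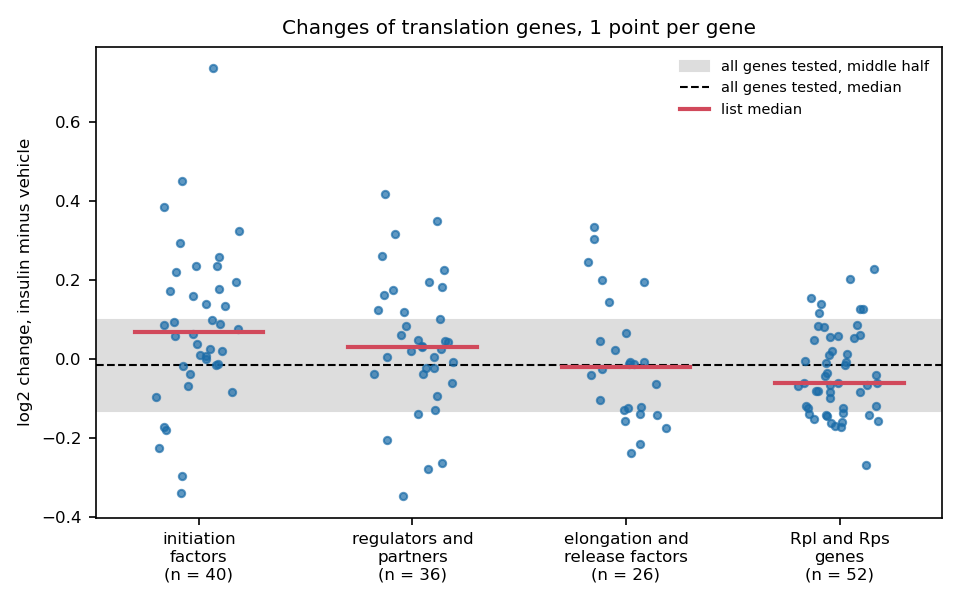
Log2 difference between insulin and vehicle, 1 point per gene, for initiation factors, regulators and partners of initiation, elongation and release factors, and Rpl and Rps genes; red bars are list medians and the grey band spans the quartiles of all genes tested. The medians run from 0.069 for the initiation factors to -0.060 for the Rpl and Rps genes, all inside the grey band.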

How the data were processed

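RNA from 3 vehicle and 3 insulin samples was read on single-colour Illumina beadchips, and groups and replicate numbers came from the sample titles. The deposited non-normalized table holds, per the file headers, each probe's signal by array, an intensity on a linear scale, and beside it a detection p-value. Per the submitters' processing notes the software was GenomeStudio, with no version given in the sources used here. A second deposited table holds the authors' processed intensity, also linear. Quantile normalization of the raw signals returned those numbers to a relative difference of 3.33e-10, so that no background was subtracted from them.

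Signals were corrected and normalized with limma 3.58.1 in R 4.3.3 by neqc, with background from the detection p-values, an offset of 16, quantile normalization and log2. This stretches differences among dim probes. Probes with a detection p under 0.05 on at least 3 arrays and a single gene symbol in the platform annotation were kept, 15007 in all, and the brightest probe stood for its gene. Of 45281 probes, 18 had several symbols and 10378 none, and these are unnamed here. All 51 initiation factor symbols matched RefSeq through Entrez identifiers. The build behind the probe design and the probe sequences were not used here, so reads of related copies were not tested. Insulin was compared with vehicle with lmFit and eBayes in two-sided tests, and p-values were adjusted by Benjamini-Hochberg over the 9478 genes, with a threshold of 0.05. The number of arrays limits the precision.

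Members and lists were chosen with earlier results of these data known. Values on every array are given for the 10 initiation factor genes with the smallest p and for a fixed set of central factors, besides Eif2ak2, which was chosen after its values were seen. The procedure was also run on simulated signals built from the means and spreads of the real fit, and its outcome is not given here. Slides and scan times were not analysed here.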

Additional observations from a re-analysis of the deposited data

How the results depend on the processing

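All alternatives were listed with earlier results of these data known. In 13 of the 16 alternatives 0 initiation factor genes passed. The exceptions were Eif5 with the trended and robust variance model (1 gene), Eif4ebp2 with the replicate number as a block (1 gene, limma adjusted p = 0.0142) and Eif4ebp2 without insulin replicate 3, so that leaving out an array gave 0 to 1. The count over all genes, 44, was 29 with normexp fitted to the signals, 22 with the authors' deposited processed values, 28 with neqc at an offset of 50, 0 without the filter on dim probes, 83 with the trended and robust variance, 75 with the replicate block, and 2 to 67 with an array left out. The count of 0 without the filter came with 703 genes higher and 942 lower at an unadjusted p under 0.05 in limma. In that fit 9 of the 51 initiation factor genes were higher and 1 lower, or 19.6% against 8.63% of its 19057 genes. The main values were 10% of 40 against 11%. The same shares were 22.5% against 11% with normexp, 25% against 11% with the authors' processed values, 22.5% against 11.2% with the offset of 50, 15% against 11% with the trended and robust variance, 17.5% against 12.8% with the replicate block and 17.5% against 10.9% without vehicle replicate 2. In the remaining alternatives the shares lay closer together. They were 10% against 10.5% with median scaling, 10% against 11.4% with detection on every array and 10% against 11.2% with array weights. The mean of a gene's probes gave 12.5% against 11.2%. With vehicle replicate 1 or 3 left out they were 10% against 9.3% and 8.65%. With insulin replicate 1, 2 or 3 left out they were 10% against 9.59%, 10% against 8.09% and 12.5% against 11.6%. None of these shares was tested, since the genes were chosen with results of these data known. The median of the initiation factor genes ran from 0.030 to 0.12 with an array left out.

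Of the 40 genes 23 kept their sign in every alternative and 17, none of them called, did not. Median scaling gave -0.00070 for Eif2d, -0.029 for Eif2s3x, -0.030 for Eif4h and 0.020 for Eif5b. The mean of a gene's probes gave -0.21 for Eif2d and -0.0010 for Eif6, and array weights gave 0.0060 for Eif2a. With an array left out the log2 difference ran from -0.039 to 0.037 for Eif2a, -0.058 to 0.18 for Eif2ak1, -0.076 to 0.19 for Eif2b1, -0.070 to 0.0028 for Eif2b5, -0.094 to 0.15 for Eif2d, -0.00061 to 0.14 for Eif2s2, -0.045 to 0.074 for Eif2s3x, -0.056 to 0.23 for Eif3d. It ran from -0.079 to 0.077 for Eif3f, -0.14 to 0.11 for Eif3l, -0.19 to 0.027 for Eif4a1, -0.056 to 0.073 for Eif4b, -0.14 to 0.020 for Eif4e3, -0.080 to 0.087 for Eif4h, -0.029 to 0.17 for Eif5a, -0.082 to 0.079 for Eif5b, -0.073 to 0.20 for Eif6 likewise.

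The labels do not say whether equal replicate numbers mark paired samples, and the main fit did not pair them. Vehicle and insulin arrays of the same number had residual correlations of 0.090, 0.15 and 0.13. Arrays of different numbers had -0.11 to -0.017, so each array correlated best with its own number, which is a hint from the data and not from the design. Besides that of Eif4ebp2, the block changed no call among the initiation factor genes. The cause of these shifts was not tested. Signal over background limits the 11 genes that were not tested.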
